A study of Homo sapiens with 6 samples.

Results

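The genes described here are 40 components and transcriptional outputs of the ERK pathway: phosphatases and adaptor-type inhibitors that switch the pathway off, immediate early transcription factors that it switches on, and ligands of the ERBB receptors that feed back into it. They were taken by name from a list made with earlier results of these data known. All 40 were found among the 20061 gene rows of the deposited table. RNA came from HEYA8, an established human ovarian cancer cell line whose source the submitters give as low grade serous ovarian carcinoma. A lentiviral construct, kept under puromycin selection, expressed a short hairpin RNA (shRNA) stably in every sample. The hairpin was directed at the transcription factor ETS1 in 3 samples (shETS1) and at luciferase, which is not a human gene, in 3 control samples (shLuciferase). No other treatment was given to either group, and the labels name 1 hairpin target per group without saying how many hairpin sequences were used or whether the samples were separate cultures.

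The authors combined the samples of a group, so each gene has 1 level per group in FPKM (fragment counts divided by transcript length and by sequencing depth), and no spread between samples could be computed. Depth is unknown from these values. A gene counts here as changed where the q-value (q) in the authors' deposited table is at most 0.05. The p-values behind it are the authors' own, and since the labels do not say that the samples were separate cultures, they may measure technical spread only. In this bulk RNA, fewer cells of a kind and less RNA per cell cannot be told apart.

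Growth factors such as the ERBB ligands bind receptor tyrosine kinases, which activate RAS, RAF, MEK and finally the kinases ERK1 and ERK2. Active ERK phosphorylates ETS-type ternary complex factors bound beside serum response factor (SRF) and thereby induces immediate early genes such as FOS and EGR1, and ETS1 is itself an ERK substrate. The induced genes include the dual-specificity phosphatases and Sprouty proteins that dampen ERK again, and RAS pathway activity of this kind is common in low grade serous carcinoma.

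The targeted gene was examined first. ETS1 stood at 17.9 FPKM in shETS1 cells, against 41.4 FPKM in shLuciferase cells, so that it fell by 56.9%, and its q in the authors' deposited table is 0.00964. Of 9 ovarian carcinoma and epithelial markers, 7 were tested and none was called, with 3 log2 ratios above 0 and 4 below. The keratin genes KRT18 and KRT8 were the most abundant, KRT18 at 1498 FPKM in shETS1 and 2044 FPKM in shLuciferase and KRT8 at 1288 and 1913 FPKM in the same order. The lineage gene PAX8 stood at 76.8 FPKM in shETS1 and 79.7 FPKM in shLuciferase. SOX17, also a lineage gene, stood at 2.38 FPKM in shETS1 and 1.15 FPKM in shLuciferase, with a q of 0.110 in the authors' deposited table. KRT19, WT1 and EPCAM were between 1.71 and 3.80 FPKM in both groups, and the untested CDH1 and MUC16 were at or near 0 in both. Of 11 listed markers of leukocytes, endothelium, fibroblasts and adipocytes found in the table, 1 was tested (CD14, at 0.525 FPKM in shETS1 and 0.688 FPKM in shLuciferase), and PTPRC, TYROBP, COL3A1 and DCN were listed at 0 in both groups. The summed level of these 11 markers was 1.28 FPKM in shETS1 and 1.19 FPKM in shLuciferase.

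Of the 40 genes, 34 had been tested by the authors and none was called, against 0.812% of all 11952 tested genes (97 genes). At an unadjusted p under 0.05 there were 4, which are 11.8% of the 34, against 6.94% of all tested genes. Of these, EGR1 and JUNB were the 2 with the higher level in shETS1 (5.88% of the 34, against 3.90% of all tested genes), and DUSP7 and JUND the 2 with the lower level (against 3.04% of all tested genes). At a q of at most 0.1 in the authors' deposited table, 1 member was past the threshold, EGR1, against 1.26% of all tested genes. The remaining 6 genes (DUSP2, DUSP8, AREG, EREG, EGR2 and EGR3) were not tested and lay at or below 0.140 FPKM in both groups, which leaves no usable ratio. SPRY1 was tested but did not reach a mean of 1 FPKM. For the other 33 the median log2 ratio of shETS1 over shLuciferase was 0.00, with 17 above 0 and 16 below, while all 10676 tested genes with such a mean had a median of 0.02, with 5612 above 0 and 5064 below. The median size of the log2 ratio, sign aside, was 0.23 for the 33 genes and 0.18 for all tested genes at that level.

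The 4 genes with an unadjusted p under 0.05 include an immediate early factor whose promoter is a textbook serum response element, so the 250 bases before the transcript start of each are shown, from RefSeq on GRCh38.p14, on the strand of the gene and 5′ to 3′. Capitals mark the ETS core GGAA on either strand (read as TTCC on the strand shown when it lies on the other) and the CArG box, the binding sequence of SRF. EGR1 is at chr5:138465229-138465478 on the plus strand, JUNB at chr19:12791236-12791485 on the plus strand, DUSP7 at chr3:52056572-52056821 on the minus strand and JUND at chr19:18281623-18281872 on the minus strand.
EGR1: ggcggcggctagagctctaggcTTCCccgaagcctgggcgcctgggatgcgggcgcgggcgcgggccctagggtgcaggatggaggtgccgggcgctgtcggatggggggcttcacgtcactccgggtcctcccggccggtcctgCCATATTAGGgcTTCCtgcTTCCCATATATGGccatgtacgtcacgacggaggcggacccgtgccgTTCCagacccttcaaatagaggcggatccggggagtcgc
JUNB: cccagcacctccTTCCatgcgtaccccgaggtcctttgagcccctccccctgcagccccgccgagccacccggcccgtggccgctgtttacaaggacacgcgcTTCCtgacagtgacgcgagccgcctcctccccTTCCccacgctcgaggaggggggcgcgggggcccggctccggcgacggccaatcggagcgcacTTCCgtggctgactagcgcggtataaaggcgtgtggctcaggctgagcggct
DUSP7: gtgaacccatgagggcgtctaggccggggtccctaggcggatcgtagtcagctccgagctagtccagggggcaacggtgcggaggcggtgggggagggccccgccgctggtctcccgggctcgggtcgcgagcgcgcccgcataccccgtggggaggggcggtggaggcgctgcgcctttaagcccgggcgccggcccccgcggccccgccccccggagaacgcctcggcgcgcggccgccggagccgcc
JUND: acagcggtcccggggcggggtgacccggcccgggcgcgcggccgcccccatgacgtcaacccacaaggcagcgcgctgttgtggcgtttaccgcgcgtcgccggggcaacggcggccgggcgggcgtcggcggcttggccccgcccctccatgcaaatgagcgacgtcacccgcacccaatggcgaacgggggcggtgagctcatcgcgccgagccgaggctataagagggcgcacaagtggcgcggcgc

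The EGR1 window held 2 CArG boxes, 96 to 105 and 74 to 83 bases before the start, with 2 ETS cores between or overlapping them, 90 to 93 and 83 to 86 bases before the start. It held 4 ETS cores in all, and the JUNB window also held 4, with no CArG box. Neither the DUSP7 nor the JUND window held an ETS core or a CArG box. JUND had 1 cAMP response element (TGACGTCA), 193 to 200 bases before the start. An ETS core of these 4 letters is common: 92.7% of 35116 RefSeq windows of this length held at least 1, with a median of 3 per window. Of the 43 windows of members, 38 held at least 1 (88.4%). CArG boxes were in 1.16% of all windows and in 3 of the members' windows (6.98%), and the members with one were EGR1, EGR2 and SRF. The cAMP response element was in 1.65% of all windows and in 5 of the members' windows (11.6%), those of AREG, DUSP1, DUSP8, JUND and MAFF. The longer ETS sequence CCGGAA was in 14.5% of all windows and in 10 of the members' windows (23.3%), from 10 members. The AP-1 sequence TGANTCA was in 6.57% of all windows and in no member's. Some members have several starts, and the 32 members have 43 windows in all. No window was found for CCND1, DUSP4, DUSP5, EGR3, FOSL1, IER3, KLF10 and MYC. These matches describe letters only and are no measure of binding.

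**Figure D1:**
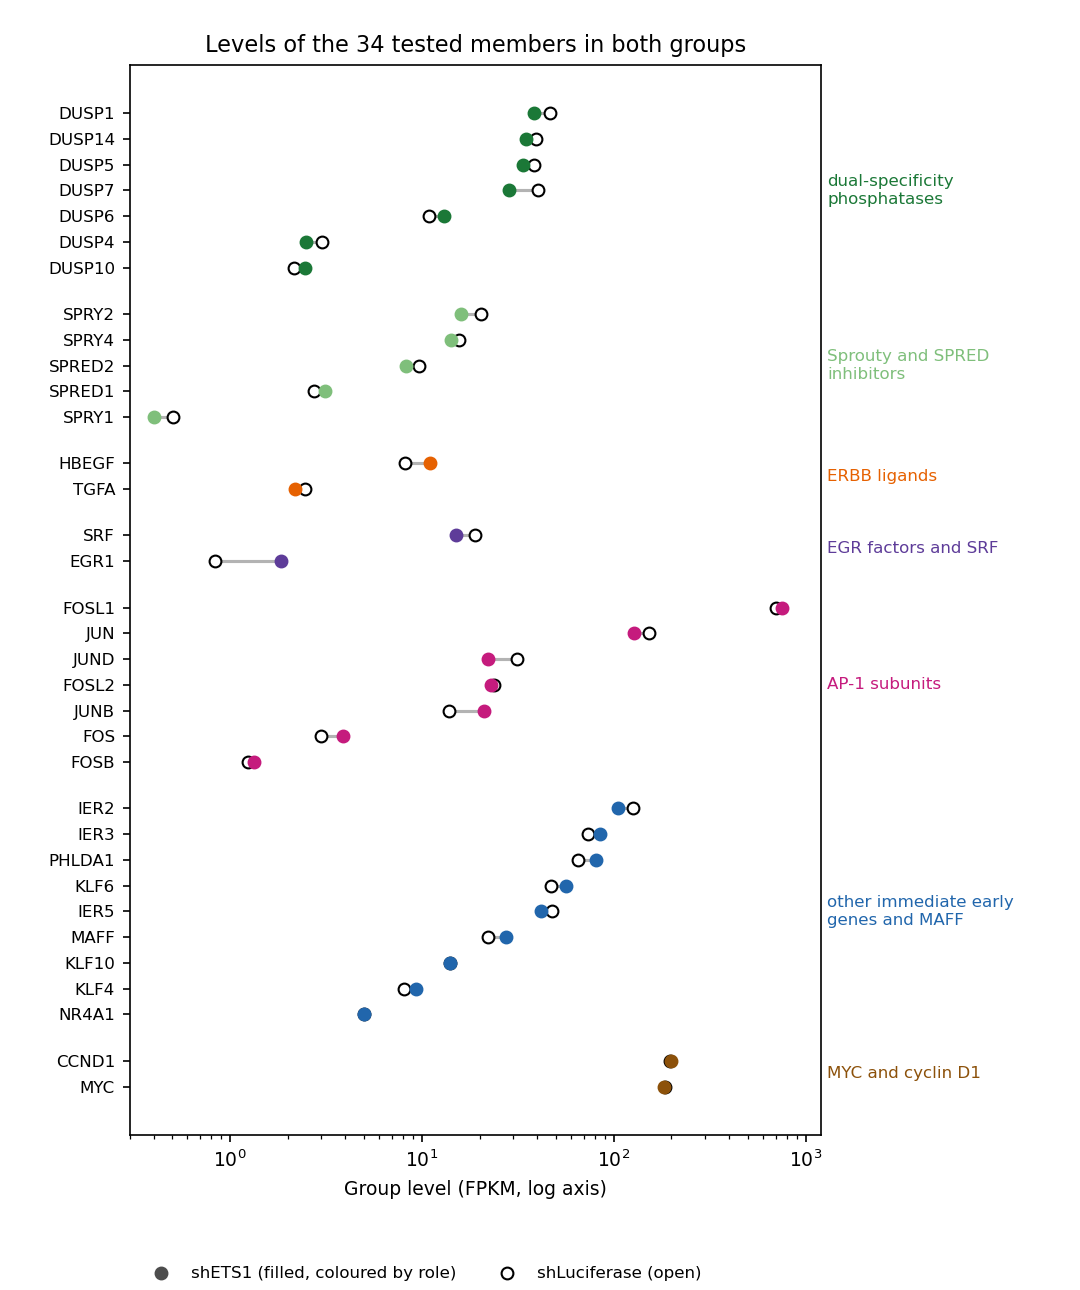
Level of each of the 34 tested members (FPKM, horizontal log axis) in shETS1 (filled, coloured by role) and shLuciferase (open), 1 authors' group value each, joined by a grey line. The levels run from SPRY1 at 0.400 and 0.507 FPKM to FOSL1 at 756 and 703 FPKM, and the widest gap is that of EGR1 at 1.85 and 0.838 FPKM.

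The dual-specificity phosphatases (DUSPs) remove both activating phosphates from mitogen-activated protein kinases. Of 9, 7 were tested and none was called, with a median log2 ratio of -0.18, 2 values above 0 and 5 below. The levels of all 9 added up to 154 FPKM in shETS1 and 181 FPKM in shLuciferase. Most of that sum came from 4 genes at similar levels.

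DUSP1, a nuclear phosphatase that is itself an immediate early gene, stood at 38.5 FPKM in shETS1 and 46.6 FPKM in shLuciferase. Its value is uncertain, because another row of the table, the transcript AK316321, has the same locus (hg19, chromosome 5, 172195093 to 172198203) and was listed at 5.03 FPKM in shETS1 and at 0 in shLuciferase. Adding both rows, a sum chosen after the values were seen, gave 43.5 FPKM in shETS1 and 46.6 FPKM in shLuciferase, with a log2 ratio of -0.10, where that of DUSP1 alone was -0.28. AK316321 was marked as having too few data for a test.

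The cytoplasmic ERK phosphatases DUSP6 and DUSP7 had ratios of opposite sign, neither called. DUSP7 (hg19, chromosome 3, 52082937 to 52090461) stood at 28.6 FPKM in shETS1 and 40.3 FPKM in shLuciferase, a log2 ratio of -0.49, with a p of 0.0350 and a q of 0.632 in the authors' deposited table. DUSP6, widely used as a transcriptional readout of ERK activity, stood at 13.1 FPKM in shETS1 and 10.9 FPKM in shLuciferase, a log2 ratio of 0.26, with a q of 1.00 in the authors' deposited table. The DUSP6 level was 0.458 of the DUSP7 level in shETS1 and 0.272 of it in shLuciferase, a difference between genes that was not tested.

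DUSP5, a nuclear phosphatase specific for ERK, stood at 33.7 FPKM in shETS1 and 38.2 FPKM in shLuciferase. DUSP4, also nuclear, was less abundant, at 2.50 FPKM in shETS1 and 3.03 FPKM in shLuciferase. DUSP14, a small atypical phosphatase, stood at 35.0 FPKM in shETS1 and 39.5 FPKM in shLuciferase. DUSP10, which prefers the stress kinases p38 and JNK, stood at 2.46 FPKM in shETS1 and 2.15 FPKM in shLuciferase. None of these 4 had a log2 ratio beyond 0.30 in size. DUSP8, also a phosphatase of the stress kinases, was not tested at 0.140 FPKM in shETS1 and 0.138 FPKM in shLuciferase, and its deposited locus is shared with 10 other rows, among them the abundant CTSD. DUSP2, a phosphatase best known from lymphocytes, was listed at 0 in shETS1 and at 0.00792 FPKM in shLuciferase.

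Sprouty and SPRED proteins are membrane-associated inhibitors of RAS activation. All 5 were tested and none was called. SPRY2 stood at 15.9 FPKM in shETS1 and 20.4 FPKM in shLuciferase, a log2 ratio of -0.36, and SPRY4 at 14.3 and 15.6 FPKM in the same order. SPRED2 stood at 8.31 FPKM in shETS1 and 9.72 FPKM in shLuciferase. SPRED1, a partner of the RAS inactivator neurofibromin, was the one with the higher level in shETS1, at 3.12 FPKM against 2.75 FPKM in shLuciferase. Its log2 ratio of 0.18 became -0.01 after correction for the GC content of transcripts. SPRY1 was the least abundant tested member, at 0.400 FPKM in shETS1 and 0.507 FPKM in shLuciferase.

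The ERBB ligands are made as membrane proteins and released by proteolysis. HBEGF, a ligand of EGFR and ERBB4 (hg19, chromosome 5, 139712428 to 139726188), stood at 11.0 FPKM in shETS1 and 8.14 FPKM in shLuciferase, a log2 ratio of 0.44, with a p of 0.0786 and a q of 0.844 in the authors' deposited table. TGFA, which binds EGFR, stood at 2.19 FPKM in shETS1 and 2.45 FPKM in shLuciferase. Amphiregulin (AREG) and epiregulin (EREG), the other EGFR ligands among the members, were not tested. AREG was at 0.0309 FPKM in shETS1 and 0.00688 FPKM in shLuciferase, and EREG at 0.0376 and 0.0173 FPKM in the same order. HBEGF therefore made up 83.0% of the summed level of these 4 ligands in shETS1 and 76.7% in shLuciferase. The deposited locus of AREG spans 179633 bases although the gene is short, and hg19 annotates a near-identical second copy, so its level is uncertain.

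EGR1, a zinc finger factor induced within minutes of ERK activation (hg19, chromosome 5, 137801181 to 137805004), had the largest log2 ratio of the tested members. It stood at 1.85 FPKM in shETS1 and 0.838 FPKM in shLuciferase, 2.20-fold higher, with a p of 0.00075 and a q of 0.0735 in the authors' deposited table, which misses the threshold of 0.05. It is among the lowest expressed members, at percentile 14.7 of all tested genes by mean level. Its log2 ratio was 1.14 as deposited and 0.63 with 1 FPKM added to both levels. EGR2 and EGR3, its relatives, were not tested: EGR2 was listed at 0.0202 FPKM in shETS1 and 0 in shLuciferase, and EGR3 at 0 in shETS1 and 0.00737 FPKM in shLuciferase. SRF, which binds the CArG boxes shown above, stood at 15.1 FPKM in shETS1 and 18.9 FPKM in shLuciferase, a log2 ratio of -0.32 with a q of 1.00 in the authors' deposited table.

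AP-1 includes dimers of a FOS family and a JUN family protein. All 7 subunits were tested and none was called. FOSL1, which encodes FRA1 and is stabilised and induced by sustained ERK signalling, was the most abundant of the 34 tested members, at 756 FPKM in shETS1 and 703 FPKM in shLuciferase, percentile 98.8 of all tested genes by mean level. It made up 96.4% of the summed FOS family level in shETS1 and 96.2% in shLuciferase. FOSL2 (FRA2) stood at 23.0 FPKM in shETS1 and 23.9 FPKM in shLuciferase. The transiently induced FOS stood at 3.90 FPKM in shETS1 and 2.99 FPKM in shLuciferase, with a q of 0.994 in the authors' deposited table. FOSB stood at 1.34 FPKM in shETS1 and 1.24 FPKM in shLuciferase, and its deposited locus is shared with ERCC1, PPP1R13L and CD3EAP, which were more abundant, so its reads are uncertain.

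Within the JUN family, JUNB had a ratio above 0 and JUN and JUND ratios below it, none called. JUN stood at 127 FPKM in shETS1 and 152 FPKM in shLuciferase, 74.7% of the family's summed level in shETS1 and 77.1% in shLuciferase. JUNB (hg19, chromosome 19, 12902310 to 12904125), which can oppose JUN at shared targets, stood at 21.0 FPKM in shETS1 and 13.8 FPKM in shLuciferase, 1.52-fold higher, with a p of 0.0156 and a q of 0.438 in the authors' deposited table. JUND (hg19, chromosome 19, 18390563 to 18392432), the least inducible of the family, stood at 22.0 FPKM in shETS1 and 31.4 FPKM in shLuciferase, a log2 ratio of -0.51, with a p of 0.0346 and a q of 0.632 in the authors' deposited table. The level of JUNB was 0.953 of that of JUND in shETS1 and 0.440 of it in shLuciferase. Whether the 2 ratios differ beyond the spread between samples could not be tested from group values.

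Of the 9 other immediate early genes and related factors, all were tested and none was called, with a median log2 ratio of 0.20, 7 above 0 and 2 below. Of these 7, KLF10 and NR4A1 lie so close to 0 that they fall below it once the median of all tested genes is subtracted. IER2 stood at 105 FPKM in shETS1 and 126 FPKM in shLuciferase, and IER5 at 41.9 and 47.8 FPKM in the same order. These were the 2 with the lower level in shETS1. IER3, a survival factor and regulator of ERK dephosphorylation, stood at 84.7 FPKM in shETS1 and 73.4 FPKM in shLuciferase. Its deposited locus lies on an alternative haplotype contig of chromosome 6, so how its reads were divided between the haplotypes is uncertain.

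PHLDA1, a pleckstrin homology domain protein counted among ERK outputs, stood at 81.0 FPKM in shETS1 and 64.8 FPKM in shLuciferase, a log2 ratio of 0.32. MAFF, a small basic leucine zipper protein, stood at 27.4 FPKM in shETS1 and 22.2 FPKM in shLuciferase. The Krüppel-like factors were KLF6, at 56.5 FPKM in shETS1 and 46.9 FPKM in shLuciferase, KLF10, at 14.0 FPKM in both, and KLF4, at 9.29 and 8.11 FPKM in that order. NR4A1, an orphan nuclear receptor, was at 5.01 FPKM in shETS1 and 5.00 FPKM in shLuciferase. In the authors' deposited table all 9 had a q of 1.00.

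MYC and CCND1, which carry ERK signals to growth and to entry into the cell cycle, were abundant and nearly equal between the groups. CCND1 stood at 199 FPKM in shETS1 and 198 FPKM in shLuciferase, a log2 ratio of 0.01. MYC stood at 183 FPKM in shETS1 and 185 FPKM in shLuciferase, a log2 ratio of -0.02. By mean level they follow directly after FOSL1 among the 34 tested members. The authors' deposited table gives no interval for these ratios, so equal values do not show equal levels.

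**Figure D2:**
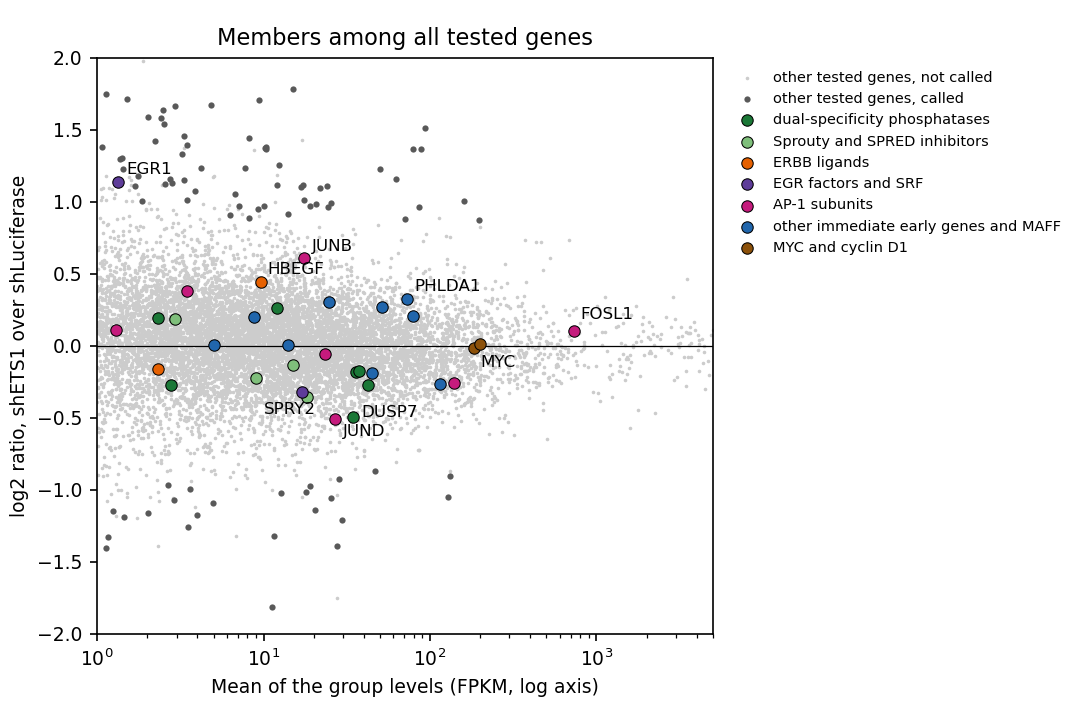
Log2 ratio of shETS1 over shLuciferase (vertical axis) against the mean of the group levels (FPKM, horizontal log axis) for the 33 members that reach a mean of 1 FPKM (coloured by role) and other tested genes (light grey, or dark grey where called). EGR1 at 1.14 is the one member past the smallest called change of 0.87, JUNB stands at 0.61, DUSP7 at -0.49 and JUND at -0.51, and 19 other genes lie outside the axes.

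As a rough guide, the smallest called change was taken in each range of level. Among tested genes with a mean from 1 to 5 FPKM the smallest called change was 1.96-fold, from 5 to 50 FPKM it was 1.83-fold and above 50 FPKM also 1.83-fold. Of the 7 members in the lowest range, EGR1 had the largest log2 ratio in size, 1.14. It was past the smallest called log2 ratio of 0.97 yet was not called, so the smallest called change is no fixed limit. Of the 18 in the middle range, JUNB was largest at 0.61, under the smallest called 0.87. Of the 8 above 50 FPKM, PHLDA1 was largest at 0.32, also under 0.87. Of the 34 tested members, 23 had a log2 ratio under 0.30 in size. Changes of that size were not called for any gene in this table, so the members' values do not show that ERK outputs stayed the same.

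Log2 ratios in this table varied with the base composition of the transcript. Across 9681 tested genes that reach a mean of 1 FPKM and a GC value, the log2 ratio had a Spearman rho of -0.47 with transcript GC content, where genes are not independent replicates and share the same libraries. The 33 members had a median GC content of 53.9%, against 50.1% for those genes, and among the 33 rho was -0.20. The fifth of genes richest in GC (from 59.2%) had a median log2 ratio of -0.15, and it includes 7 members. JUND had the highest GC content of the 33, 69.7%, JUNB 64.9%, DUSP7 59.2% and EGR1 55.4%. With the trend removed, the log2 ratio of JUND was -0.34, that of DUSP7 was -0.37, that of JUNB was 0.77 and that of EGR1 was 1.23. All 4 have a GC content above the median of 50.1%, where the trend runs low, so removing it raised each of their log2 ratios whatever the sign. The sign changed for 4 members, to -0.01 for SPRED1, 0.00 for FOSL2, -0.06 for KLF10 and 0.05 for MYC.

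**Figure D3:**
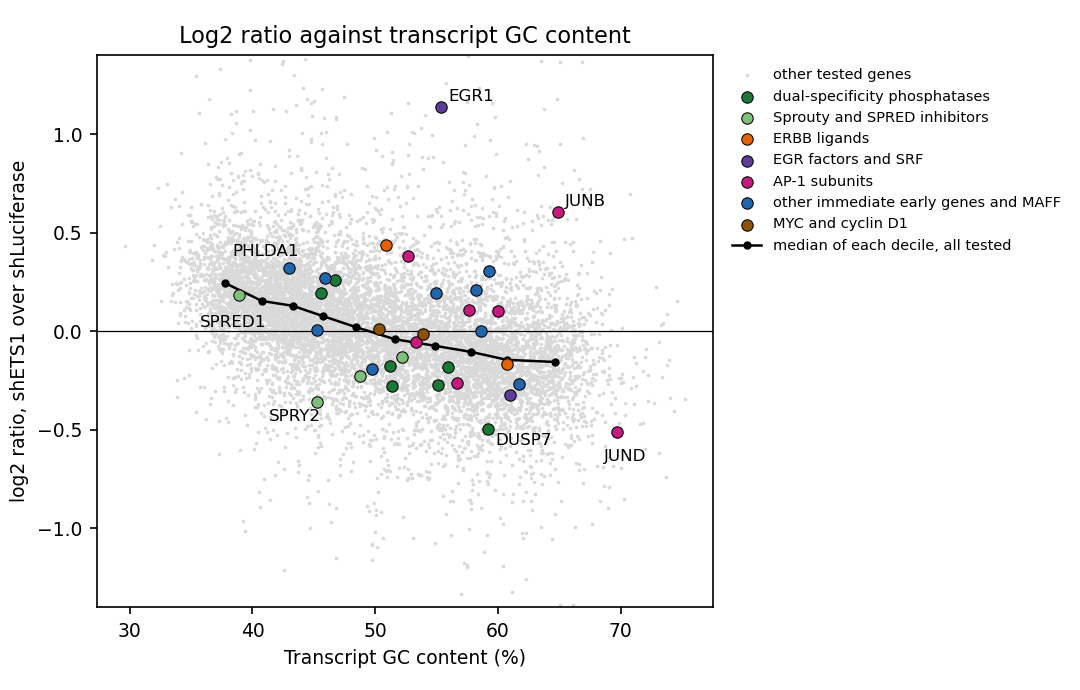
Log2 ratio of shETS1 over shLuciferase (vertical axis) against transcript GC content (percent, horizontal axis) for the same 33 members (coloured by role) and other tested genes (grey), with the median of each GC decile joined by a black line. JUNB and JUND, both GC-rich, lie on opposite sides of the line, at 0.61 and -0.51, and 21 other genes lie outside the axes.

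Gene structure was described for the 33 members that reach a mean of 1 FPKM. Their median number of exons was 4, against 9 over all tested genes that reach a mean of 1 FPKM, and their deposited loci had a median length of 8306 bases against 34900. JUN, JUNB, JUND, IER2 and IER5 have a single exon in the transcript used. The sequence TATTTAT, a core of the AU-rich elements that mark short-lived messages, occurred in the 3′ untranslated region of 20 of the 33 members (60.6%), against 28.3% of 9675 genes with such a region, whose median length of 815 bases was shorter than the members' 1290. The 20 members with it had a median log2 ratio of -0.02 and the 13 without it 0.00. SPRED1 had the most copies, 5. The share with TATTTAT differed by role, from 2 of 7 phosphatases (28.6%) to all 4 Sprouty and SPRED genes. The 19 tested early response genes outside the members had a median of 3 exons and a median locus length of 5188 bases. Of these 19, 68.4% held TATTTAT, so such features are not particular to the members.

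The rest of the pathway was described from 8 lists of 88 other genes, chosen with earlier results of these data known. Of these, 74 were tested, 3 rose and none fell, where 0.544% of all tested genes rose and 0.268% fell. The median log2 ratio of the 68 that reach a mean of 1 FPKM was -0.02. The 3 that rose were ADAM8, BTG1 and CTGF.

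Upstream of RAS, the receptor genes EGFR and ERBB2 were not called, EGFR at 17.4 FPKM in shETS1 and 21.6 FPKM in shLuciferase and ERBB2 at 14.7 and 16.5 FPKM in the same order. Of the other ERBB ligands only the neuregulins NRG1 and NRG2 were tested. NRG1, singled out after its value was seen, stood at 13.8 FPKM in shETS1 and 7.66 FPKM in shLuciferase, 1.25 times the level of HBEGF in shETS1 and 0.941 times in shLuciferase, with a q of 0.193 in the authors' deposited table. Of 9 tested proteases and regulators of ligand release, ADAM8 rose to 3.51 FPKM in shETS1, against 1.61 FPKM in shLuciferase, with a q of 0.0352 in the authors' deposited table. The most abundant of them, ADAM15, stood at 64.9 FPKM in shETS1 and 107 FPKM in shLuciferase with a q of 0.172 in the authors' deposited table, and ADAM19 at 13.9 and 15.5 FPKM in the same order.

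None of 18 tested genes from adaptors to ERK was called, with a median log2 ratio of 0.02. The MEK gene MAP2K2 stood at 225 FPKM in shETS1 and 223 FPKM in shLuciferase, and HRAS at 181 and 214 FPKM in the same order. None of 6 tested kinases downstream of ERK was called either, with RPS6KA4 at 50.7 FPKM in shETS1 and 59.5 FPKM in shLuciferase and MKNK2 at 32.9 and 40.2 FPKM. Of the 8 tested ETS factors and SRF cofactors none was called, with ETV4, a further ERK output, at 58.7 FPKM in shETS1 and 62.9 FPKM in shLuciferase and ELK3 at 24.7 and 26.5 FPKM. Among 8 other dual-specificity phosphatases none was called, with DUSP12 at 25.2 FPKM in shETS1 and 24.6 FPKM in shLuciferase and DUSP3 at 17.2 and 25.2 FPKM. DUSP3 had a p of 0.01745 and a q of 0.462 in the authors' deposited table. SPRED3 was at 1.67 FPKM in shETS1 and 2.32 FPKM in shLuciferase.

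Early response genes outside the members included 2 of the 3 that rose. BTG1, an antiproliferative factor, rose to 16.5 FPKM in shETS1, against 7.63 FPKM in shLuciferase, with a q of 0.00964 in the authors' deposited table. CTGF, a matricellular protein and target of SRF and YAP, rose to 256 FPKM in shETS1, against 140 FPKM in shLuciferase, with a q of 0.0445 in the same authors' deposited table. CYR61, its relative, stood at 525 FPKM in shETS1 and 433 FPKM in shLuciferase, and PLAUR at 217 and 195 FPKM, neither called. At an unadjusted p under 0.05, 6 of the 19 tested genes of this list had the higher level in shETS1 (31.6%, against 3.90% of all tested genes and 5.88% of the tested members) and none the lower (against 3.04% of all tested genes). Beyond BTG1 and CTGF these were MCL1, RHOB, TRIB1 and ZFP36L2, named after their values were seen. The list was chosen with earlier results of these data known, so its share is a description and no evidence of enrichment. The lists were not tested against each other.

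None of 7 tested heat shock genes, which like immediate early genes respond to stress, was called. HSPA8 stood at 1821 FPKM in shETS1 and 1739 FPKM in shLuciferase, HSP90AA1 at 1290 and 1085 FPKM in the same order, and the median log2 ratio of the 6 that reach a mean of 1 FPKM was -0.06. Their part in the members' values was not tested.

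**Figure D4:**
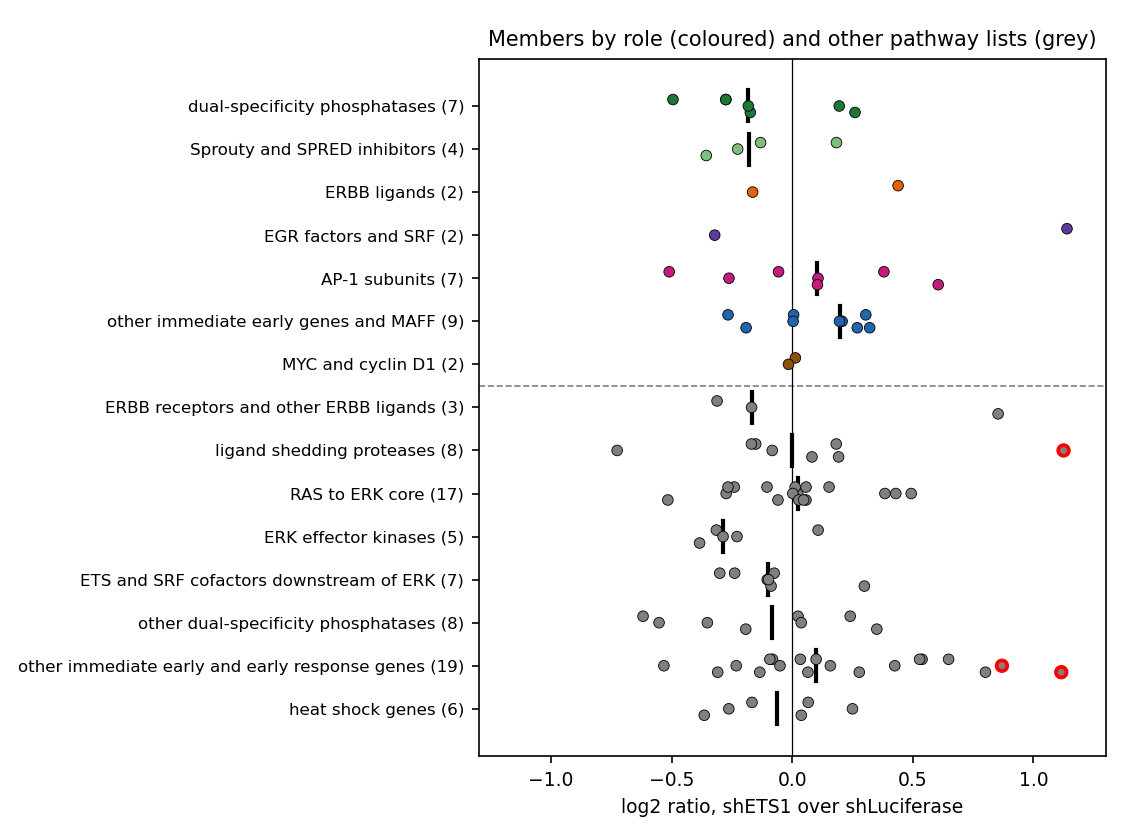
Log2 ratio of shETS1 over shLuciferase (horizontal axis) of each tested gene that reaches a mean of 1 FPKM, by role for the members (coloured, upper rows) and by list for other pathway genes (grey, lower rows), with the number of genes in parentheses. Black bars are medians of rows with more than 2 genes and red rings mark called genes, which are ADAM8, BTG1 and CTGF, all outside the members.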

How the data were processed

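Polyadenylated RNA of 3 shETS1 and 3 shLuciferase samples of HEYA8 cells was copied with random hexamers without a described strand-marking step, per the labels' protocols, so overlapping genes on the 2 strands cannot be told apart with certainty. The submitters' processing notes name Cufflinks 2.1.1, TopHat2 2.0.7, SAMtools 0.1.18 and Bowtie2 2.0.6, and the build hg19. Their annotation and library scaling were not given in the sources used here. The deposited table compares the groups in Cuffdiff's layout, with 1 deposited FPKM value per group for each gene. Per the file headers it also holds a log2 fold change, a test statistic, which is a score and was left aside, a p-value and a q-value. For all 34 tested members the log2 ratio computed here lay within 0.001 of the deposited log2 value. The deposited q-values were recovered by adjusting the authors' p-values across 11952 tested rows (Benjamini-Hochberg). Since no value per sample was given, the count or limma tests set out for such values could not be used.

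Medians of log2 ratios and counts by their sign were computed with pandas 2.3.3 under Python 3.11.15 for tested genes with a mean of at least 1 FPKM (10676 rows). Counts of called genes and of p under 0.05 were over all 11952 tested rows. The Benjamini-Hochberg adjustment and the fit of the GC trend were checked on simulated data. GC content, exons and 3′ untranslated regions came from GENCODE 29 by symbol, using the transcript with the longest coding sequence and no coordinates. The GC trend was a cubic fit over 9681 genes. Locus coordinates are on hg19, counted from 1, and promoter windows on GRCh38.p14. Every tested member is named, and of the other lists the called genes and the 2 most abundant. PAX8, SOX17, KRT19, WT1, EPCAM, NRG1, MCL1, RHOB, TRIB1 and ZFP36L2 are named outside this rule, after their values were seen. So are markers at or near 0. The members and all lists were chosen with earlier results of these data known.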

Additional observations from a re-analysis of the deposited data

How the results depend on the processing

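No paired analysis was possible because the table holds 1 value per group, and for the same reason no sample could be left out. At a q of 0.1 in the authors' deposited table, 101 genes were higher and 49 lower in shETS1 (65 and 32 at 0.05), with EGR1 the 1 member among them. At an unadjusted p under 0.05 there were 466 higher and 363 lower, with 2 members higher and 2 lower, and 8 pathway genes higher and 4 lower (3 and none at a q-value of 0.05). Adjusting over rows with a mean of at least 1 FPKM gave EGR1 an adjusted p of 0.0755 from the authors' p-values, so no member was called there either. The median log2 ratio of the AP-1 subunits was 0.10, -0.057 over subunits that reach a mean of 5 FPKM and 0.22 with the GC trend removed, so it has no settled sign. The medians of all members, of the phosphatases, of the Sprouty and SPRED genes and of the other immediate early genes moved by less than 0.10 under the 6 alternatives run. With the GC trend removed the log2 ratio of ETS1 was -1.33, against -1.21. Signs changed for 4 of 33 members with the GC trend removed and for 3 of 34 (KLF10, NR4A1 and CCND1) on centring, which shifts all values by 0.02. The cause was not tested. Depth is unknown.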
